A study of Mus musculus with 3 samples.

Results

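Lepr encodes the leptin receptor, and Leprot encodes the leptin receptor overlapping transcript protein. Their messenger RNA was followed in mouse liver, where Lepr was chosen by its high FPKM ratio under diet restriction and Leprot was taken with it as its neighbour on chromosome 4. The members were the rows named Lepr or Leprot in the deposited expression tables, 2 of 23850 rows. FPKM is the number of fragments per kilobase of transcript, relative to the mapped fragments of the library, so levels of different genes in one library can be set side by side. Because the choice used the Lepr values themselves, all values of Lepr below are a description and no test is made of them.

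Liver RNA came from Ercc1 delta/- mice under diet restriction (Ercc1 DR), Ercc1 delta/- mice fed ad libitum (Ercc1 AL) and freely fed wild-type mice (wt AL). All were 16 weeks old and on a mixed C57BL6J/FVB background. The Ercc1 protein is part of an endonuclease of DNA repair, and these mutants carry a null allele beside a second mutant allele in every cell, so the genotype is not limited to liver. Total RNA from frozen liver was depleted of ribosomal RNA and sequenced, with 1 library per group. The labels used here give neither the number of animals behind a library, nor their sex, nor the degree or length of the restriction. No wild-type library under restriction was analysed here, so the diet was compared within the mutant only.

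Leptin is released by fat cells in proportion to stored fat and is low when food is scarce. Its receptor is a class I cytokine receptor that signals through the kinase JAK2 and the transcription factor STAT3, chiefly in the hypothalamus. Alternative splicing gives a long signalling form, short forms with a truncated cytoplasmic end and, in mice, a soluble form that binds leptin in blood. Liver is a source of soluble receptor, and Lepr RNA in mouse liver has been reported to go up when food is withdrawn. The Leprot protein, also called endospanin-1, is a small membrane protein of endosomes that lowers the amount of leptin receptor and growth hormone receptor at the cell surface. Leprotl1, or endospanin-2, is its paralog on another chromosome.

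The deposited row for Lepr spans chromosome 4 from 101717407 to 101815354 on build mm10, or 97.9 kb, and that for Leprot spans 101647783 to 101659358, or 11.6 kb. Both genes lie on the plus strand in the GENCODE vM21 annotation of the same assembly, with Leprot upstream. In human, the 2 genes are described as sharing a promoter and leader exons. The mouse models used here show no shared start or exon, and use of a start outside these models was not tested. The Leprot and Lepr starts are 69.6 kb apart, 58048 bases lie between the end of Leprot and the start of Lepr, each row has a start entry of its own, and the annotated exons of the 2 genes share 0 bases. GENCODE lists 7 Lepr transcripts, of which 4 are coding. Lepr-201 codes for 1162 residues and is the long form, while Lepr-202 and Lepr-203 code for 892 and 894 residues. All coding Lepr transcripts begin translation at the same position, 101728030, and they differ in where they end. Leprot has 2 transcripts, of 131 and 108 residues. The deposited value is one per gene, so the long, short and soluble forms of Lepr cannot be told apart in what follows. No other annotated exon overlaps an exon of Lepr, Leprot or Leprotl1 on either strand.

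The stretches just before the annotated starts are shown to compare the promoters of a gene whose level differed widely between diets and of a neighbour whose level differed little. They come from the RefSeq table for GRCm38.p6, in which both genes were matched, and read 5′ to 3′ on the plus strand. Capitals mark GC boxes (GGGCGG) and CCAAT boxes, which here read ATTGG because they lie on the opposite strand. Leprot is chr4:101647533-101647717 and Lepr is chr4:101717157-101717403, each ending where the first annotated exon begins.
Leprot: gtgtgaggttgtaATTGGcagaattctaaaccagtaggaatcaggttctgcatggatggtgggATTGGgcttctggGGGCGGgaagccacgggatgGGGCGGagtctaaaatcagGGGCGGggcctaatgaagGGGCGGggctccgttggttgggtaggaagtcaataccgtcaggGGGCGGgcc
Lepr: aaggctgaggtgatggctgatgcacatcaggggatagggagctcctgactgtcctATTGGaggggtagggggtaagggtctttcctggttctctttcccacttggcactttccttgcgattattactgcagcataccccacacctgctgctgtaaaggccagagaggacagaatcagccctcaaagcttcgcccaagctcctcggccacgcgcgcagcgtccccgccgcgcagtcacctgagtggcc
The Leprot stretch holds 5 GC boxes and 2 CCAAT boxes, whereas the Lepr stretch holds 0 GC boxes and 1 CCAAT box.

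Over the 250 bases before the RefSeq start, the Leprot window had 60.8% G or C and 15 CG pairs, and the main Lepr window had 58.4% and 10. Both were above the medians of all RefSeq promoters, 52.4% and 6. The full Leprot window held 6 GC boxes, at positions -174, -154, -135, -117, -74 and -24 from the start, and both CCAAT boxes. The last 65 bases of this window lie in an annotated exon, and they include the GC box at -24. The second RefSeq start of Lepr lies 499 bases downstream, and its window is wholly exonic and held 1 GC box. A GC box was found in 33% and a CCAAT box in 33.8% of 32536 promoter windows of this length, counting both strands. The cAMP response half-site TGACG, found in 17.9% of windows, occurred 1 time in the Leprot window and 0 times in the Lepr windows. None of the 3 windows held the STAT site TTCNNNGAA (7.04% of all windows), the cAMP response element TGACGTCA (1.56%), the FOXO site GTAAACA (3.17%), the glucocorticoid receptor half-site TGTTCT (16%), the nuclear receptor half-site AGGTCA (14%), the TATA box TATAAA (12.3%) or the E-box CACGTG (6.04%). The half-site TGACG is also contained in the full element, and a letter match does not show that a factor binds.

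Lepr stood at 53.0 FPKM in Ercc1 DR, with a deposited interval of 52.8 to 54.7. It stood at 1.34 FPKM in Ercc1 AL (1.23 to 1.45) and at 0.738 FPKM in wt AL (0.653 to 0.823). The restricted library was thus far above both freely fed libraries, and none of the 3 intervals overlapped. The interval widths correspond to about 13217 Lepr fragments in Ercc1 DR, 588 in Ercc1 AL and 299 in wt AL, if they follow whole-number counts. These counts differ less between Ercc1 DR and Ercc1 AL than the FPKM does, which was 39.65-fold higher in Ercc1 DR as deposited. Implied totals of both libraries were similar, at 25.0 and 25.1 M fragments. The reason was not tested, and the fold ranges from interval bounds given below carry this uncertainty. By level, Lepr was number 524 of 19062 official gene symbols in Ercc1 DR, number 8727 of 19043 in Ercc1 AL and number 10394 of 19062 in wt AL. Intervals cover the counting and assignment of fragments within a library and not the difference between animals, and with 1 library per group no replicate check of a difference was possible.

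**Figure D1:**
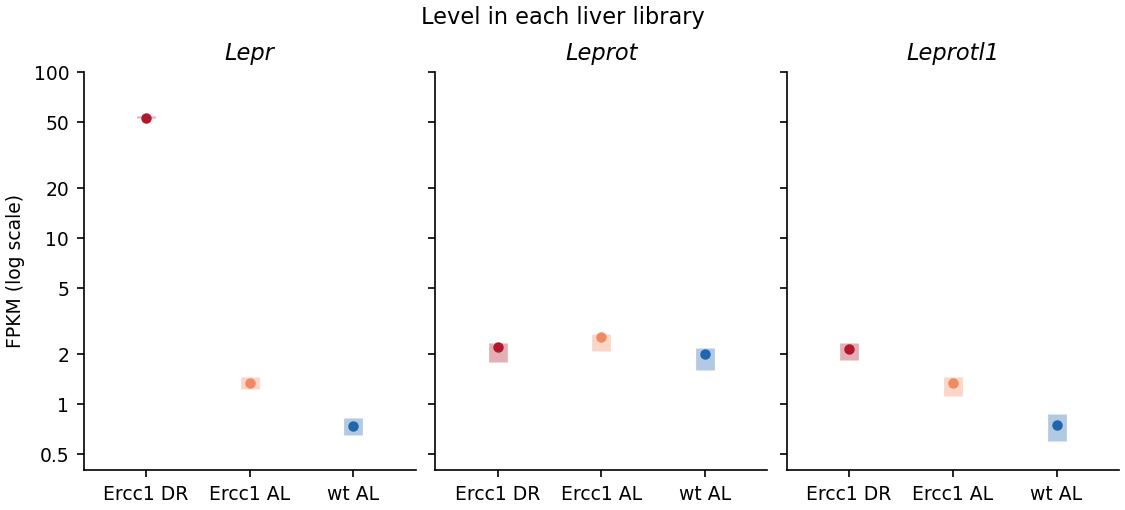
FPKM of Lepr, Leprot and Leprotl1 on a log axis in Ercc1 DR, Ercc1 AL and wt AL, with points for the deposited value and bars for its deposited interval. Lepr is at 53.0 FPKM in Ercc1 DR against 1.34 and 0.738 FPKM in the freely fed libraries, while Leprot stays between 2.005 and 2.53 FPKM.

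Ratios between libraries were taken as log2 of FPKM + 1 after each pair was scaled so that the median log2 ratio of FPKM was 0 over the 9109 genes that reached 1 FPKM in every library. That median was 0.33 for Ercc1 DR against Ercc1 AL, 0.78 for Ercc1 DR against wt AL and 0.49 for Ercc1 AL against wt AL, so values as deposited run higher in the first-named library. On the scaled measure, Lepr had a log2 ratio of 4.27 in Ercc1 DR against Ercc1 AL, and 4.53 as deposited. Without a pseudocount, the scaled FPKM was 31.5-fold higher in Ercc1 DR, and setting the interval bounds against each other gave 29.0-fold to 35.4-fold. Against wt AL the log2 ratio was 4.40, and the scaled FPKM was 41.8-fold higher (37.3-fold to 48.8-fold from the bounds). Both ratios of Ercc1 DR rest on the same restricted library.

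With free feeding, the mutant differed little from wild type in Lepr. Ercc1 AL against wt AL gave a log2 ratio of 0.18 for Lepr and 0.43 as deposited, below the 2-fold threshold either way. The scaled FPKM was 1.29-fold higher in Ercc1 AL, with 1.06-fold to 1.58-fold from the bounds. The pseudocount of 1 shrinks this ratio more than those above, because both levels are near 1 FPKM.

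Lepr was 1 of 386 genes at least 2-fold higher in Ercc1 DR against Ercc1 AL, which was 3.12% of 12361 genes with at least 1 FPKM in either library, and 1479 genes (12%) were at least 2-fold lower. It was also among 730 genes (6.02% of 12127) at least 2-fold higher in Ercc1 DR against wt AL, where 1992 (16.4%) were lower. In Ercc1 AL against wt AL, 291 of 12359 genes (2.35%) were at least 2-fold higher and 605 (4.9%) lower, and Lepr was in neither group. Leprot passed the threshold in none of the 3 comparisons, scaled or as deposited. Scaling matters for the split: of genes past 2-fold, 20.7%, 26.8% and 32.5% were higher in the first-named library after scaling, and 42.7%, 73.6% and 72.5% as deposited, in the order of the comparisons above. From the highest ratio down, Lepr was number 11 of all genes in Ercc1 DR against Ercc1 AL, number 16 in Ercc1 DR against wt AL and number 3594 in Ercc1 AL against wt AL.

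**Figure D2:**
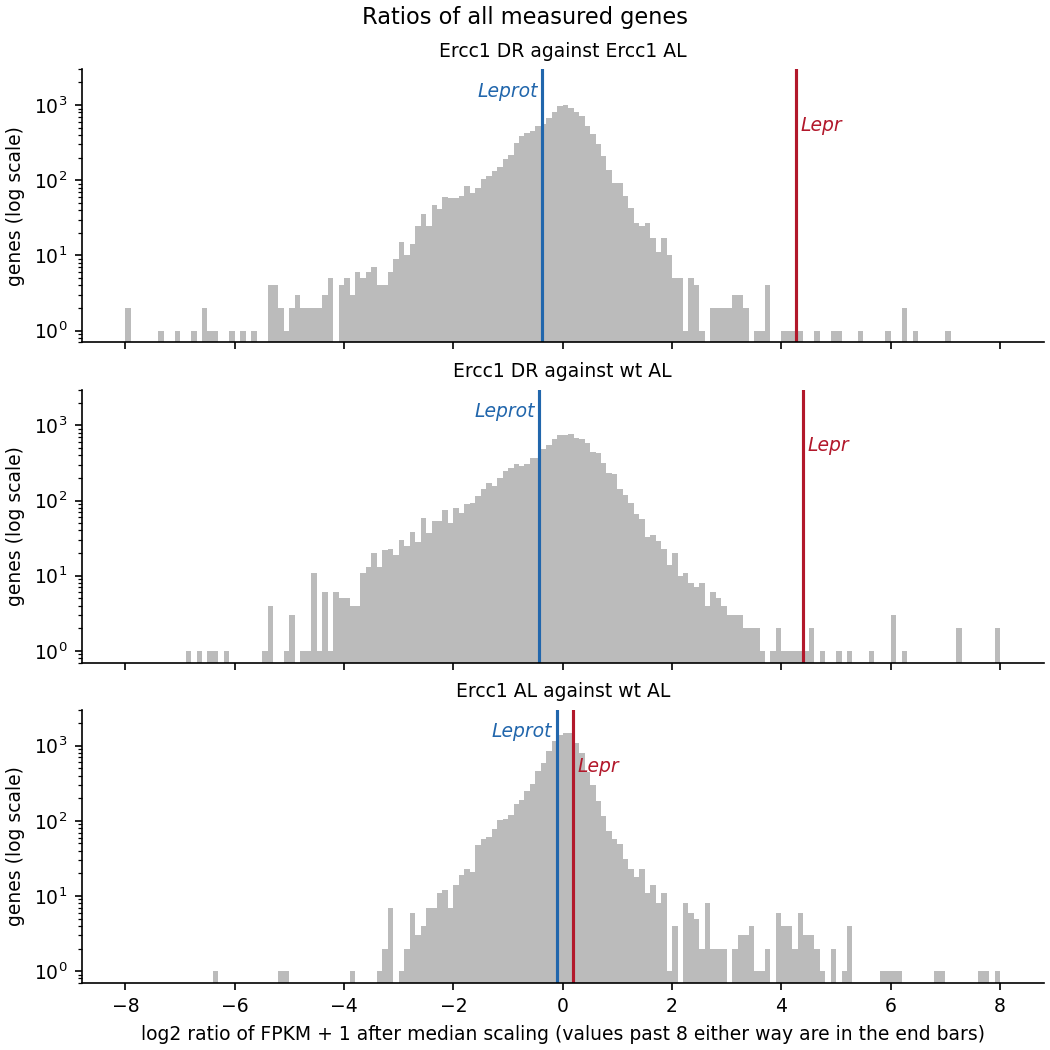
Number of genes (log axis) by scaled log2 ratio in each comparison, with lines at Lepr and Leprot and with ratios past 8 either way drawn in the end bars. Lepr lies at 4.27 and 4.40 in the comparisons of Ercc1 DR and at 0.18 in Ercc1 AL against wt AL, while Leprot lies between -0.44 and -0.11.

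Restricted to official symbols that reached 5 FPKM in any library, Lepr had the third highest ratio in Ercc1 DR against Ercc1 AL. Among the genes above it was the cytochrome P450 gene Cyp2c39, at 129 FPKM in Ercc1 DR against 3.33 FPKM in Ercc1 AL. Cyp2c39 belongs to a family of near-identical copies that may share fragments. In Ercc1 DR against wt AL, Lepr was number 4 by the same measure, and Fam134b and Sult1e1 were among the genes above it.

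As deposited, Leprot was at a similar level in all 3 libraries. It stood at 2.205 FPKM in Ercc1 DR (1.80 to 2.34), 2.53 FPKM in Ercc1 AL (2.08 to 2.63) and 2.005 FPKM in wt AL (1.61 to 2.18), and every pair of intervals overlapped. The implied fragments were 235, 294 and 180, so Leprot was measured with less precision than Lepr in the restricted library. Its log2 ratio was -0.37 in Ercc1 DR against Ercc1 AL and -0.14 as deposited. The sign depended on scaling elsewhere, at -0.44 scaled and 0.09 as deposited in Ercc1 DR against wt AL, and -0.11 scaled and 0.23 as deposited in Ercc1 AL against wt AL. From the interval bounds, the scaled FPKM of Leprot in Ercc1 DR was 0.543 to 0.893 of that in Ercc1 AL and 0.480 to 0.843 of that in wt AL. Both ranges put Leprot lower in Ercc1 DR after scaling.

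The FPKM ratio of Lepr to Leprot within a library needs no scaling between libraries. It was 24.05 in Ercc1 DR (22.6 to 30.4 from the interval bounds), 0.529 in Ercc1 AL (0.467 to 0.696) and 0.368 in wt AL (0.300 to 0.510). Lepr was therefore the higher of the pair under restriction and the lower of the pair in both freely fed libraries. The paralog Leprotl1 stood at 2.15 FPKM in Ercc1 DR (1.84 to 2.34), 1.33 FPKM in Ercc1 AL (1.12 to 1.46) and 0.744 FPKM in wt AL (0.597 to 0.869). In the freely fed libraries Leprotl1 was close to Lepr, with overlapping intervals, and in Ercc1 DR it was not. Scaled log2 ratios of Leprotl1 were 0.22, 0.42 and 0.17 in Ercc1 DR against Ercc1 AL, Ercc1 DR against wt AL and Ercc1 AL against wt AL.

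Genes of the leptin pathway were described from a list of 47, without Lepr and Leprot, of which 46 had a row and 42 were measured, meaning at least 1 FPKM in either library, in Ercc1 DR against Ercc1 AL. Of these 42, 2 were at least 2-fold higher in Ercc1 DR, 2 at least 2-fold lower and 38 within the threshold, with a median log2 ratio of 0.10 beside -0.06 for all genes tested, of which 3.12% were higher and 12% lower. As deposited 3 were higher and 2 lower, beside 6.5% and 8.71% of all genes. Against wt AL, 1 of 40 was higher in Ercc1 DR and 3 were lower, beside 6.02% and 16.4% of all genes (median 0.20 beside -0.03). As deposited 10 of the 40 were higher and 1 lower, beside 24% and 8.63% of all genes. In Ercc1 AL against wt AL 0 of 42 were higher and 1 was lower, beside 2.35% and 4.9% of all genes (median 0.04 beside 0.01). The highest ratio in the list in Ercc1 DR against Ercc1 AL was 1.36, against 4.27 for Lepr.

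The ligand gene Lep, normally a product of fat, was low throughout, at 0.0886 FPKM in Ercc1 DR (0.0568 to 0.120), 0.179 FPKM in Ercc1 AL (0.133 to 0.228) and 0.0688 FPKM in wt AL (0.0383 to 0.0975), and it entered no ratio for that reason. Jak2, the kinase bound to the receptor, was at 2.43 FPKM in Ercc1 DR, 1.84 FPKM in Ercc1 AL and 2.15 FPKM in wt AL, giving a log2 ratio of 0.04 in Ercc1 DR against Ercc1 AL. Stat3, the transcription factor it activates, was at 18.4, 10.7 and 9.05 FPKM in the same order, a log2 ratio of 0.42. Neither passed 2-fold in any comparison. Stat3 shares 72 exonic bases with its antisense neighbour Stat5a, and the use of strand in counting is not given in the sources used here. Among other signalling genes, Grb2, an adaptor that leads to RAS, was at 9.24 FPKM in Ercc1 DR, 20.9 FPKM in Ercc1 AL and 16.6 FPKM in wt AL. Its log2 ratio was -1.40 in Ercc1 DR against Ercc1 AL, and its deposited FPKM lies outside its own interval in all 3 libraries. Prkab1, a regulatory subunit of the energy sensor AMPK, was at 8.33, 3.23 and 1.91 FPKM in that order, with log2 ratios of 0.86 in Ercc1 DR against Ercc1 AL and 1.07 against wt AL. The deposited FPKM of Prkab1 in Ercc1 DR also lies outside its own interval.

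The inhibitors of leptin receptor signalling went different ways. Socs3, the feedback inhibitor that leptin induces through STAT3, was at 1.085 FPKM in Ercc1 DR (0.905 to 1.26), 1.58 FPKM in Ercc1 AL (1.35 to 1.71) and 1.64 FPKM in wt AL (1.39 to 1.82). The restricted library was the lowest of the 3, and its interval did not overlap the others, yet the log2 ratio was -0.50 against Ercc1 AL and within the threshold. Ptpn1, a phosphatase that acts on JAK2, was at 1.75, 1.57 and 1.59 FPKM in Ercc1 DR, Ercc1 AL and wt AL, with overlapping intervals. Socs2, a feedback inhibitor known for its action on growth hormone signalling, was at 19.8 FPKM in Ercc1 DR, 5.88 FPKM in Ercc1 AL and 6.497 FPKM in wt AL, with log2 ratios of 1.29 against Ercc1 AL and 0.76 against wt AL. Cish, of the same family, was at 4.94 FPKM in Ercc1 DR, 0.981 FPKM in Ercc1 AL and 9.73 FPKM in wt AL. Its log2 ratio was thus 1.36 in Ercc1 DR against Ercc1 AL but -1.53 in Ercc1 DR against wt AL and -2.78 in Ercc1 AL against wt AL. Cish overlaps annotated antisense genes, and its deposited FPKM in wt AL lies outside its own interval. Ptprt, a receptor-type phosphatase that can act on STAT3, was at 1.92, 5.25 and 6.35 FPKM in Ercc1 DR, Ercc1 AL and wt AL, with log2 ratios of -1.34 against Ercc1 AL and -1.92 against wt AL.

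Adam10 and Adam17, proteases that shed the receptor from the surface of human cells, stayed within the threshold in every comparison. Adam10 was at 4.47 FPKM in Ercc1 DR, 3.39 FPKM in Ercc1 AL and 2.13 FPKM in wt AL, and Adam17 at 4.0, 2.89 and 1.94 FPKM. Their log2 ratios in Ercc1 DR against Ercc1 AL were 0.05 and 0.10.

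**Figure D3:**
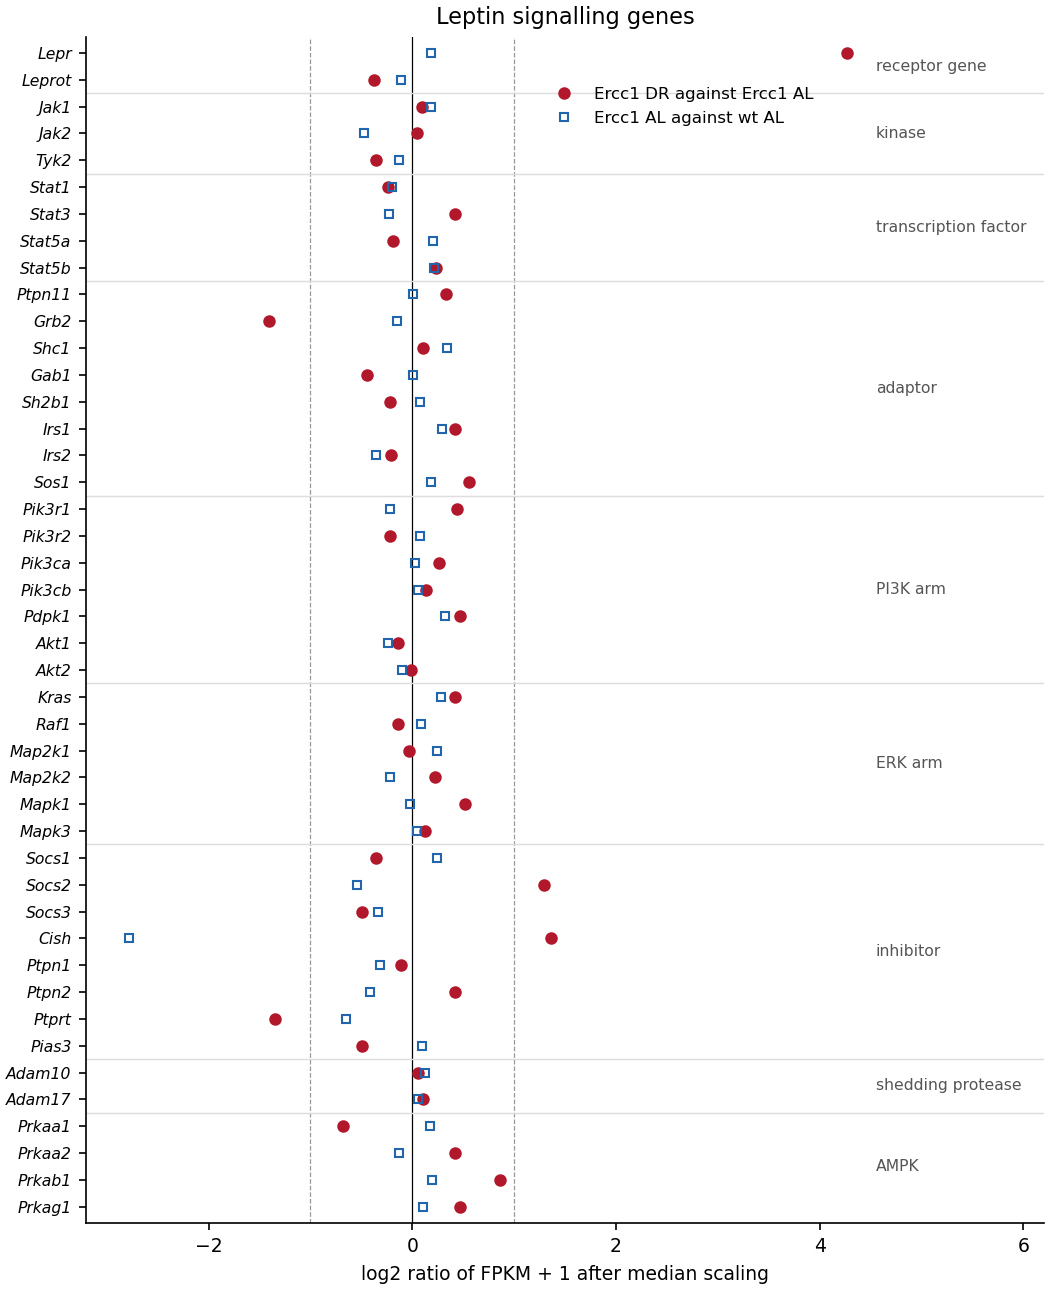
Scaled log2 ratios of the measured leptin signalling genes by role in Ercc1 DR against Ercc1 AL (circles) and Ercc1 AL against wt AL (squares), with dashed lines at 2-fold. Lepr stands alone at 4.27, and Socs2 (1.29), Cish (1.36), Grb2 (-1.40) and Ptprt (-1.34) are the others past 2-fold in Ercc1 DR against Ercc1 AL.

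Leprot acts in endosomes, so its paralog and genes of the ESCRT and retromer complexes, which sort membrane proteins there, were described as a list of 18. All 18 were measured, and 0 were at least 2-fold higher or lower in any of the 3 comparisons after scaling, where 2.35% to 6.02% of all genes were higher and 4.9% to 16.4% lower. As deposited, 10 of the 18 were higher in Ercc1 DR against wt AL, beside 24% of all genes. Their median log2 ratio was 0.25 in Ercc1 DR against Ercc1 AL, 0.43 in Ercc1 DR against wt AL and 0.17 in Ercc1 AL against wt AL, beside -0.06, -0.03 and 0.01 for all genes tested. The largest ratios in Ercc1 DR against Ercc1 AL were those of the ESCRT genes Chmp4b (0.66, at 13.4 FPKM in Ercc1 DR against 6.39 FPKM in Ercc1 AL) and Tsg101 (0.63, at 7.91 against 3.73 FPKM) and the retromer genes Vps29 and Vps35 (0.58 each). The last 2 overlap antisense genes, and the FPKM of all 4 genes in Ercc1 DR lies outside its own interval.

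Lepr was next placed among the class I cytokine receptors, a family of 28 other genes in the list used. In Ercc1 DR it had the highest FPKM of the 29, followed by Il6st, the shared signalling chain gp130, at 48.9 FPKM. In Ercc1 AL it was number 13, between Il4ra at 1.53 FPKM and Il11ra1 at 1.21 FPKM, and its interval overlapped both of theirs. In wt AL it was number 19, between Il2rg at 0.760 FPKM and Il12rb1 at 0.652 FPKM, again with overlapping intervals. The interval of Lepr in Ercc1 DR did not overlap that of Il6st (46.7 to 48.3), although the deposited FPKM of Il6st lies above its own interval.

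No other receptor of the family was at least 2-fold higher in any comparison after scaling. Of 17 measured in Ercc1 DR against Ercc1 AL, 0 were higher and 3 lower, beside 3.12% and 12% of all genes, with a median of -0.43 beside -0.06. Against wt AL, 0 of 15 were higher in Ercc1 DR and 6 lower, beside 6.02% and 16.4% of all genes (median -0.61 beside -0.03), while as deposited 2 were higher and 5 lower, beside 24% and 8.63%. In Ercc1 AL against wt AL, 0 of 17 were higher and 3 lower, beside 2.35% and 4.9% of all genes (median -0.13 beside 0.01). As deposited 1 was higher and 1 lower in that comparison, beside 5.8% and 2.2% of all genes. With 15 to 17 measured genes, 1 gene more or less moves such a share widely, so nothing is read from the counts of higher genes. After Lepr, the highest ratio in Ercc1 DR against Ercc1 AL was that of Il6ra, the interleukin 6 receptor, at 0.70. Among the lower receptors were Il31ra, an interleukin 31 receptor chain (8.04 FPKM in Ercc1 DR, 31.2 FPKM in Ercc1 AL and 30.3 FPKM in wt AL), and Il3ra, an interleukin 3 receptor chain (9.21, 27.99 and 57.7 FPKM). The deposited FPKM lies outside its own interval for Il3ra in every library and for Il31ra in both freely fed libraries, and Il31ra shares 45 exonic bases on the same strand with Gm3226. Ghr, the growth hormone receptor that Leprot also acts on, was at 39.1 FPKM in Ercc1 DR, 57.6 FPKM in Ercc1 AL and 59.6 FPKM in wt AL. Its log2 ratio was -0.87 in Ercc1 DR against Ercc1 AL, within the threshold, and -1.36 against wt AL.

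**Figure D4:**
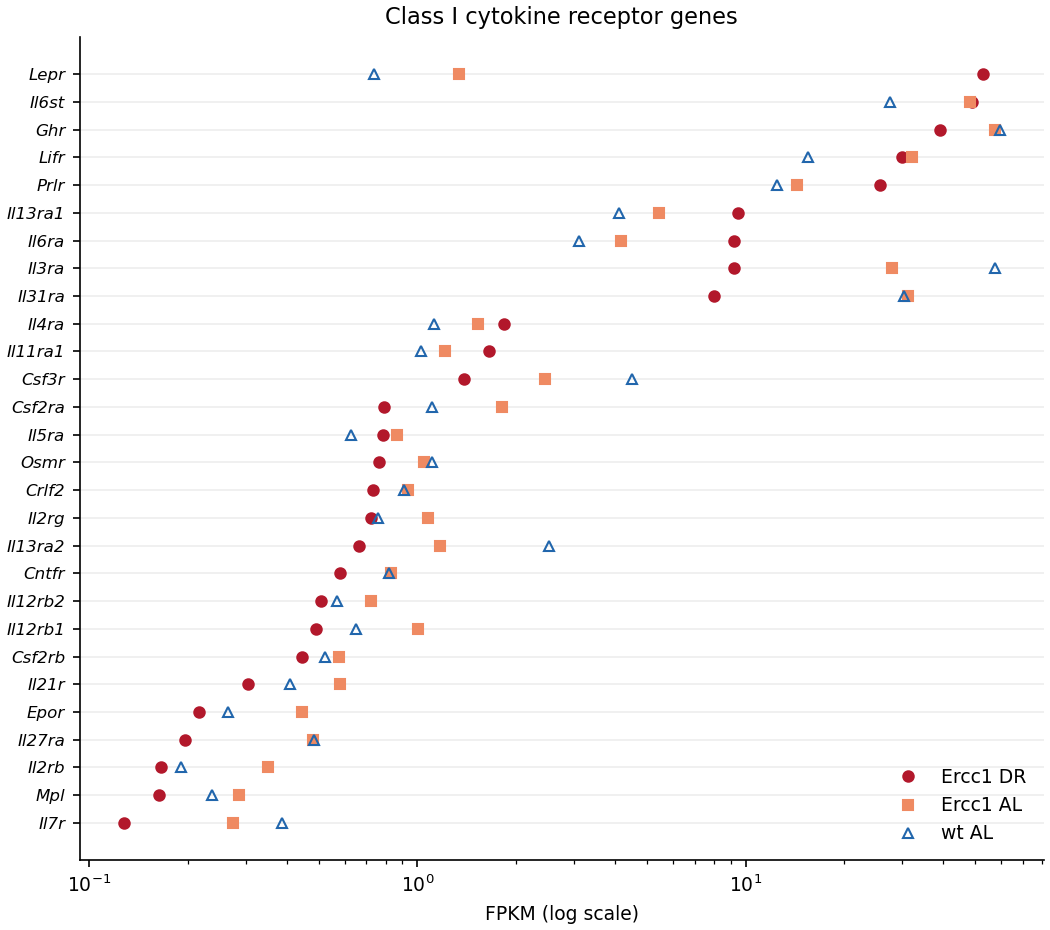
FPKM (log axis) of Lepr and other class I cytokine receptor genes in Ercc1 DR (circles), Ercc1 AL (squares) and wt AL (triangles), ordered by the level in Ercc1 DR. Lepr is the first gene in Ercc1 DR at 53.0 FPKM, against 1.34 FPKM in Ercc1 AL and 0.738 FPKM in wt AL.

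Other hormone and growth factor receptors of liver were taken from a list of 30. As deposited in Ercc1 DR against Ercc1 AL, 2 of 21 measured were at least 2-fold higher and 0 lower, beside 6.5% and 8.71% of all genes. After scaling 1 of the 21 was higher and 0 lower, beside 3.12% and 12% of all genes, with a median of 0.20 beside -0.06. A count of 1 is near the share of all genes. The gene was Klb, the co-receptor through which FGF21 and FGF15 act, at 10.1 FPKM in Ercc1 DR, 2.34 FPKM in Ercc1 AL and 2.10 FPKM in wt AL, with a log2 ratio of 1.46 against Ercc1 AL. The next highest ratios were those of the interleukin 1 receptor Il1r1 (0.73, at 23.95, 11.1 and 4.04 FPKM in Ercc1 DR, Ercc1 AL and wt AL) and the vasopressin receptor Avpr1a (0.71, at 6.55, 2.84 and 1.46 FPKM). Against wt AL, 3 of 21 were higher in Ercc1 DR and 1 lower, beside 6.02% and 16.4% of all genes (6 and 0 as deposited, beside 24% and 8.63%), and in Ercc1 AL against wt AL 0 of 20 passed in either direction, beside 2.35% higher and 4.9% lower. Of the receptors with an estimate in Ercc1 DR, Lepr had the highest FPKM, while it was number 21 of 30 in Ercc1 AL.

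Genes known to respond in liver to fasting, amino acid shortage or glucocorticoids were described beside Lepr from a list of 30. Of 28 measured in Ercc1 DR against Ercc1 AL, 8 were at least 2-fold higher and 0 lower, beside 3.12% and 12% of all genes, with a median of 0.25 beside -0.06. Against wt AL, 9 of 29 were higher in Ercc1 DR and 2 lower, beside 6.02% and 16.4% of all genes (15 and 2 as deposited, beside 24% and 8.63%). In Ercc1 AL against wt AL 0 of 27 were higher and 2 lower, beside 2.35% and 4.9% (5 and 1 as deposited, beside 5.8% and 2.2%). The 4 with the largest ratios in Ercc1 DR against Ercc1 AL were Got1, the cytosolic aspartate aminotransferase (3.16), Sds, the serine dehydratase (2.56), Igfbp1, a binding protein of insulin-like growth factors (2.28), and Lpin1, a phosphatidate phosphatase (1.41). Igfbp1 was at 39.3 FPKM in Ercc1 DR, 5.70 FPKM in Ercc1 AL and 6.63 FPKM in wt AL, and Sds at 112, 14.3 and 7.08 FPKM. None of the 28 had a ratio as high as that of Lepr in Ercc1 DR against Ercc1 AL. The deposited FPKM of Got1, Sds, Igfbp1 and Lpin1 in Ercc1 DR lies outside its own interval, and Sds overlaps the antisense gene Plbd2.

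The genes whose pattern was most like that of Lepr were taken as those nearest by Euclidean distance over the scaled log2 ratios of Ercc1 AL and Ercc1 DR against wt AL, among 4446 official symbols that reached 5 FPKM in any library. The distance covers 3 libraries, and both ratios use the same wt AL library. The nearest was Sult1e1, the estrogen sulfotransferase, at a distance of 0.48, with 30.1 FPKM in Ercc1 DR, 0.905 FPKM in Ercc1 AL and 0.0955 FPKM in wt AL. Got1 followed at 0.74, with 470, 41.0 and 16.1 FPKM in that order. Slco1a4, an organic anion transporter, lay at 0.81 with 56.9, 3.60 and 2.06 FPKM. These genes were chosen for ratios like those of Lepr, so a restricted library far above both freely fed ones follows from the choice. The deposited FPKM of Sult1e1, Got1 and Slco1a4 in Ercc1 DR lies outside its own interval. Slc25a22, a mitochondrial glutamate carrier, lay at 1.0 with 65.0, 5.93 and 2.79 FPKM, and Fam134b, a receptor for the breakdown of endoplasmic reticulum, lay at 1.26 with 115, 10.4 and 2.20 FPKM. Under free feeding, Fam134b and Sult1e1 were less like Lepr. In Ercc1 AL against wt AL, Fam134b had a log2 ratio of 1.43, past the threshold. Sult1e1 had 0.66 with the pseudocount of 1, but without a pseudocount its scaled FPKM was 6.74-fold higher in Ercc1 AL, against 1.29-fold for Lepr, so its place as nearest depends on the pseudocount at these low levels. Without a pseudocount, Got1, Slco1a4 and Slc25a22 were 1.81-fold, 1.24-fold and 1.51-fold higher in that comparison.

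Genes around Lepr on chromosome 4 did not share its ratio. Within 500 kb of its ends the table holds 12 rows with Lepr and Leprot, and in Ercc1 DR against Ercc1 AL the 6 measured rows other than Lepr and the microRNA gene Mir101a had log2 ratios from -1.41 to 0.49. Jak1, a kinase gene upstream, was at 9.99 FPKM in Ercc1 DR, 7.35 FPKM in Ercc1 AL and 4.49 FPKM in wt AL, with a log2 ratio of 0.10. Ak4, an adenylate kinase gene, was at 9.90, 7.66 and 7.28 FPKM (0.03), and the phosphodiesterase gene Pde4b downstream was at 2.19, 1.31 and 1.25 FPKM (0.26). The rows nearest to Lepr, Leprot among them, thus stayed within the threshold or were under 1 FPKM. Dnajc6, which lies before Leprot, was at 0.194 FPKM in Ercc1 DR, 0.491 FPKM in Ercc1 AL and 0.589 FPKM in wt AL, and B020004J07Rik, Gm12794 and Gm12789 beyond Lepr were also under 1 FPKM in every library. The noncoding gene E130102H24Rik was at least 2-fold lower in Ercc1 DR, with a log2 ratio of -1.41. Mir101a inside it had -1.70, but its row spans 83 bases and was listed at 607091 FPKM in Ercc1 DR, 1561300 FPKM in Ercc1 AL and 1719090 FPKM in wt AL, and FPKM of so short a row is uncertain. Of a wider list, 13 genes lie on chromosome 4 with Lepr, and 6 of them were measured in Ercc1 DR against Ercc1 AL, with 0 higher and 1 lower, beside 3.12% and 12% of all genes. The lower gene was Wdr78, at 1.22 FPKM in Ercc1 DR against 3.97 FPKM in Ercc1 AL.

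**Figure D5:**
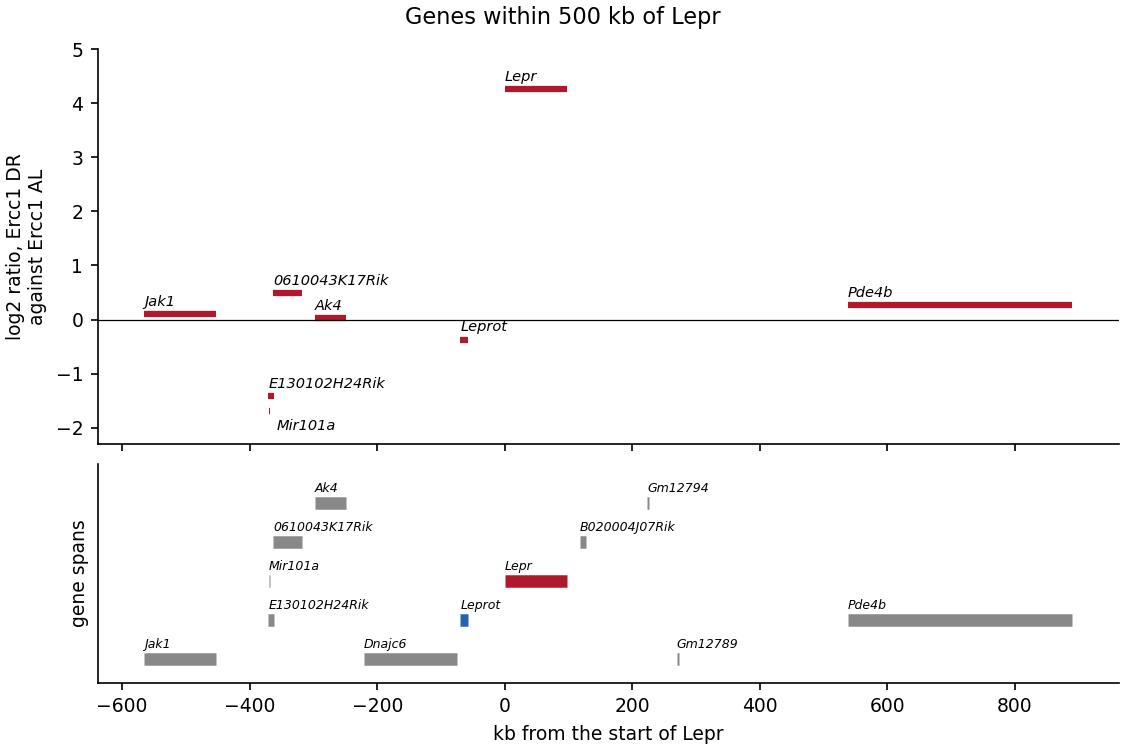
Scaled log2 ratio of Ercc1 DR against Ercc1 AL (upper part) and gene spans (lower part) by distance in kb from the start of Lepr. Lepr is at 4.27, and the other measured rows within 500 kb of its ends lie between -1.41 and 0.49 apart from Mir101a, a very short row, at -1.70.

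Markers of liver cell types bear on which cells the RNA came from. Sums of markers below are of FPKM as deposited, without scaling. Hepatocyte markers, of which 9 of 10 had an estimate in all libraries, summed to 8324 FPKM in Ercc1 DR, 4134 FPKM in Ercc1 AL and 3308 FPKM in wt AL, so the tissue label fits them. In Ercc1 DR against Ercc1 AL, 3 of these 9 were at least 2-fold higher and 0 lower, beside 3.12% and 12% of all genes. The 3 were Cps1 (log2 ratio 1.60), Tat (1.18) and Ttr (1.07), and Tat is also in the list of fasting genes. Of the 9, 7 had ratios above 0 and 2 below, Serpina1a (-0.88) and Apoc3 (-0.13). Sinusoidal endothelial markers (9 of 10 in the table) summed to 18.8, 38.5 and 44.8 FPKM in Ercc1 DR, Ercc1 AL and wt AL, with 0 higher and 2 lower of 9 in Ercc1 DR against Ercc1 AL (median -0.55), beside 3.12% and 12% of all genes. Against wt AL, 0 of the 9 were higher in Ercc1 DR and 5 lower, beside 6.02% and 16.4%, with a median of -1.15. As deposited 0 were higher and 2 lower in that comparison, beside 24% and 8.63% of all genes. Stellate cell markers (10 of 10) summed to 47.9, 45.5 and 29.7 FPKM, with Dcn the largest at 30.8, 24.5 and 13.5 FPKM. Kupffer cell and macrophage markers (8 of 9) summed to 14.1, 21.0 and 16.4 FPKM. In Ercc1 DR against Ercc1 AL, all 6 measured markers of each list had scaled log2 ratios below 0 (medians -0.40 and -0.64). This depended on scaling for the stellate markers. As deposited, Dcn (0.32), Lrat (0.16) and Rgs5 (0.03) were above 0, and Reln (-0.32), Pdgfrb (-0.34) and Ecm1 (-0.39) below. Of the measured Kupffer cell and macrophage markers, only Vsig4 (0.006) was above 0 as deposited. In each list 0 passed 2-fold, beside 3.12% higher and 12% lower of all genes. Against wt AL after scaling, 3 stellate markers were above 0 and 4 below, and all 5 measured Kupffer cell and macrophage markers were below. As deposited, Vsig4 (0.41), Cd5l (0.09) and the stellate marker Pdgfrb (0.15) were above 0 in that comparison. Adipocyte markers (7 of 7) summed to 32.0, 52.1 and 21.5 FPKM, and most of this was Retn, at 18.9, 46.1 and 18.5 FPKM. Other members differed in order, with Cidec at 8.18, 1.56 and 1.01 FPKM, Fabp4 at 4.19, 2.93 and 1.16 FPKM, and Adipoq at 0.148, 0.492 and 0.320 FPKM in Ercc1 DR, Ercc1 AL and wt AL. Cholangiocyte markers (6 of 6) summed to 5.02, 5.155 and 8.04 FPKM, pancreatic markers (6 of 6) to 4.23, 9.60 and 6.79 FPKM, and neutrophil markers (6 of 6) to 3.54, 6.91 and 8.86 FPKM. The largest neutrophil marker was Mpo, at 1.24, 3.50 and 6.41 FPKM, and the other neutrophil markers were each highest in Ercc1 AL. No marker with an estimate was at 0 in any library. Their part in the Lepr result was not tested, and in bulk RNA fewer cells of a type and less RNA per cell cannot be told apart.

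Over the whole tables, the implied fragments were 19.0 to 25.1 M per library and genes with at least 1 FPKM numbered 10436 to 11861. Rows without an estimate numbered 56 to 96. In 9.70% to 12.96% of rows the FPKM was not within its interval, but it was within it for Lepr, Leprot and Leprotl1 in all libraries. The row of the mutated gene Ercc1 was at 0.475 FPKM in Ercc1 DR, 0.573 FPKM in Ercc1 AL and 0.461 FPKM in wt AL with overlapping intervals, and as a sum over the gene it does not check the labels.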

How the data were processed

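Ribosomal RNA-depleted total RNA of mouse liver was sequenced as 3 libraries with a TruSeq protocol, per the labels' protocols. The deposited values are FPKM per gene with a lower and an upper bound and a status, per the file headers. The genome build was mm10, per the submitters' processing notes, while the counting tool, its version, transcript lengths and use of strand were not given in the sources used here. Rows with the status HIDATA or FAIL were treated as missing. Libraries were assigned to groups by their titles.

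Log2 ratios are of FPKM + 1, with a pseudocount of 1, over genes with at least 1 FPKM in either library, after median scaling between the 2 libraries. The search for the nearest pattern set no such minimum per comparison, so Sult1e1 has a ratio in Ercc1 AL against wt AL despite levels below it. On this scale the change of low genes is understated. A ratio of at least 2-fold was counted. With 1 library per group no test, p-value or SD was possible. Where a symbol had several rows, lists used the row of highest mean FPKM. Depth is unknown beyond the fragments implied by the deposited intervals, with each bound taken as 2 SDs from the midpoint. Exon overlaps and transcripts come from GENCODE vM21, and promoters from RefSeq (GRCm38.p6). Calculations used Python 3.11.15, pandas 2.3.3 and numpy 2.4.6, and were tested on simulated data.

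Genes named are Lepr, Leprot and Leprotl1, leptin signalling genes past 2-fold in any comparison, Lep, Jak2, Stat3, Socs3 and Ptpn1, up to 4 members of each other list with the largest ratio in Ercc1 DR against Ercc1 AL, listed genes within 500 kb of Lepr, and the 5 nearest in pattern. Not all of these are described. Cyp2c39, Adam10, Adam17, Il6st, Il6ra, the receptors next to Lepr in level, the unlisted rows near Lepr, Retn, Cidec, Fabp4, Adipoq and Ercc1 were named after their values were seen. The same holds for Dcn, Lrat, Vsig4 and Apoc3. Some genes are not reported here. The members and lists were chosen with earlier results of these data known.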

Additional observations from a re-analysis of the deposited data

How the results depend on the processing

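The alternatives were the values as deposited, a pseudocount of 0.1 or none, the midpoint of the deposited interval in place of FPKM, and an FPKM minimum of 5 or none for counts of genes. Of 60 values under alternatives, 35 stayed within the range of the interval bounds (or, for counts, within 1.5 times), 25 moved and 0 of the called ones changed sign. The log2 ratio of Lepr in Ercc1 DR against Ercc1 AL became 4.53 as deposited, 4.89 with a pseudocount of 0.1 and 4.98 with none. In Ercc1 DR against wt AL it became 4.96, 5.25 and 5.39 in the same order, and in Ercc1 AL against wt AL 0.43, 0.33 and 0.37. As deposited, Leprot had 0.093 in Ercc1 DR against wt AL and 0.23 in Ercc1 AL against wt AL, the opposite sign to the scaled values. With a pseudocount of 1 the log2 level ratio of Lepr to Leprot was 4.08 in Ercc1 DR and -0.79 in wt AL. As deposited, 803, 2916 and 717 genes were at least 2-fold higher in Ercc1 DR against Ercc1 AL, Ercc1 DR against wt AL and Ercc1 AL against wt AL, and 1047 and 272 were lower in the comparisons with wt AL. With a pseudocount of 0.1, 2564 were lower in Ercc1 DR against Ercc1 AL, 1182 higher in Ercc1 DR against wt AL, and 448 higher and 1018 lower in Ercc1 AL against wt AL. With a minimum of 5 FPKM, 1081 were lower in Ercc1 DR against wt AL and 385 in Ercc1 AL against wt AL, and interval midpoints gave 176 higher in Ercc1 AL against wt AL. The cause of the other moves was not tested. Precision is limited by the 1 library per group and, for Leprot and for Lepr under free feeding, by few implied fragments. No paired analysis was possible because each group has 1 library.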

Other observations

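Egfr, the epidermal growth factor receptor of hepatocytes, had an estimate only in wt AL, at 1660 FPKM (interval 1682 to 1698), and none in Ercc1 DR or Ercc1 AL, so the order of receptors by level leaves it out in the mutant libraries.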
